A study of Mus musculus with 8 samples.

Results

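A set of 40 cell cycle and centromere genes was examined in retinas of *dmbo* and WT mice at postnatal day 15 (P15). The genes were picked by symbol for their roles in cell division, with earlier results of these data known. Every one of the 40 was on the array. Each gene stands for its brightest probe set over the 8 arrays, out of 21652 genes that carry 1 symbol and 28350 probe sets in all. The group called *dmbo* was homozygous for a nonsense mutation of *Hmx1*, a homeobox transcription factor of the eye, ear and peripheral nervous system. These mice had been crossed back to C57BL/6J for 3 further generations, which took out the *rd1* mutation, and the WT group was C57BL/6J. There were 4 *dmbo* and 4 WT retinas, each whole, each from a different animal by the study's methods, and each on its own Affymetrix Mouse Gene 1.0 ST array. The values are log2 signals after RMA (robust multi-array average), and fold changes are given as *dmbo* minus WT on that scale.

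Cells divide through a cycle in which cyclins switch on cyclin-dependent kinases (CDKs), CDK inhibitors hold them back, and the E2F and Rb proteins control the genes needed for DNA synthesis. Before DNA synthesis the MCM helicase is loaded onto replication origins. At mitosis the kinetochore is built on centromeres, which are marked by the histone variant CENP-A. HJURP is the chaperone that places new CENP-A at centromeres after division. The mouse retina at P15 has finished making neurons, so nearly all of its cells have left the cycle, and several cyclins and CDK inhibitors keep roles in cells that no longer divide.

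Array medians of the log2 signal ran from 8.19 to 8.28, and correlations between arrays lay between 0.989 and 0.997. The probe set of *Hmx1* gave a log2 fold change of -0.0021 (limma adjusted p = 1), and a nonsense mutation removes none of its sequence, so it does not check the labels. Some arrays stood apart in transcripts from outside these genes. Averaged over 14 lens crystallins, the log2 signal was 11.48, 10.18, 8.34 and 12.52 in *dmbo* replicates 1 to 4, against 7.41, 7.47, 7.74 and 9.0 in WT replicates 1 to 4. *Xist*, which coats the silent X chromosome in females, had a log2 signal between 10.58 and 12.87 in all 4 *dmbo* retinas and of 12.80 in WT replicate 2, against at most 6.65 in the other 3 WT retinas. *Eif2s3y*, a Y-linked gene, had 10.78 in *dmbo* replicate 1 and 8.85 in *dmbo* replicate 2, which thus carried transcripts of both sexes, so whether each of these 2 samples came from 1 animal is unclear. Rod markers were high throughout: 8 rod photoreceptor genes averaged 12.35 to 12.48 in *dmbo* and 12.40 to 12.47 in WT retinas. Averages of 11 bipolar, amacrine, horizontal and ganglion cell markers were 10.18 to 10.32 in *dmbo* and 10.24 to 10.37 in WT retinas. Of these, *Pou4f1* at 8.09 and *Lhx1* at 7.67 lay under the array medians. Fold changes were negative for 7 of the 11 and positive for 4. Groups did not overlap for 2, *Tfap2b* at -0.36 and *Lhx1* at -0.20, against 5.83% of all genes. In whole tissue, fewer cells of a type and less RNA per cell cannot be told apart.

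Of the 40 genes 1 changed, *Hjurp*, which was 1.8-fold lower in *dmbo* retinas, and 0 rose. A gene was called changed at an adjusted p under 0.1 from limma, with Benjamini-Hochberg adjustment over all 28350 probe sets, with at least a 1.2-fold change. Over all 21652 genes this rule called 137, or 0.633%, and 69 of them fell, or 0.319%. A further 2 genes had *dmbo* and WT values that did not overlap without passing the test, *Cdkn2c*, which was higher in *dmbo*, and *Ccna2*, which was lower. Such separation was seen in 3 of the 40 genes, counting *Hjurp*, and in 5.83% of all genes. An unadjusted p under 0.05 was reached by 7 of the 40, namely *Hjurp*, *Cdkn2c*, *Ccna2*, *Rb1*, *Cdk6*, *Cdkn1b* and *Cenpe*, against 7.75% of all genes. The fold change was positive for 31 genes and negative for 9, with a median of 0.07 against 0.0049 over all genes. With the arrays scaled by their medians 30 were positive, with *Ccne2* turning negative, and with cyclic loess 29 were, with *Ccne2* and *Cdk2* turning. With the mean of the lens crystallins as a covariate, which correlates at 0.752 with genotype, 16 were positive and 24 negative, with a median of -0.09 and 17 genes turning, *Cdkn1c* among them. For 19 of the 40 genes the 95% interval of the fold change lay wholly within 1.2-fold in both directions.

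**Figure D1:**
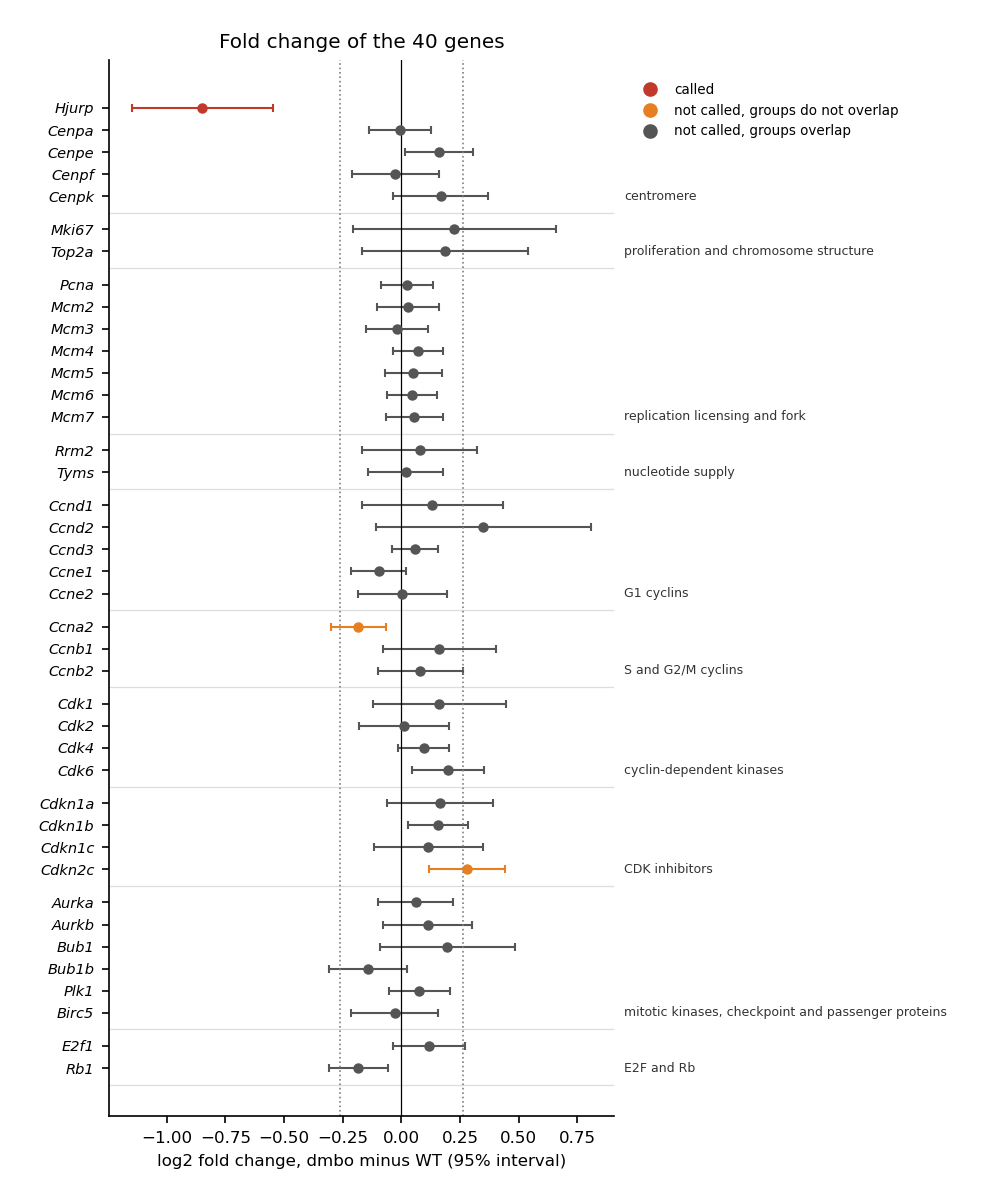
Log2 fold change of each of the 40 genes, *dmbo* minus WT (4 retinas each), with its 95% interval from limma, grouped by role down the page. Dotted lines mark a 1.2-fold change in each direction, and *Hjurp* is the gene whose whole interval lies beyond one of them, from -1.15 to -0.55.

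*Hjurp* had the lowest p and the largest fold change of the set. Its probe set (10356461, 19 probes) lies on the minus strand of chromosome 1 between 90155662 and 90174154, positions that the deposited table gives without naming a build. The log2 signal was 7.92, 7.95, 8.11 and 8.61 in the *dmbo* retinas, against 9.07, 8.97, 8.98 and 8.96 in the WT retinas. All 4 *dmbo* values lay below all 4 WT values, the WT values were nearly level, and *dmbo* replicate 4 was the nearest to them. The means were 8.15 ± 0.32 in *dmbo* and 9.0 ± 0.05 in WT retinas (SD, n = 4 each). The fitted log2 fold change was -0.85 (SE, the standard error, 0.13, 95% interval -1.15 to -0.55, limma adjusted p = 0.0314). The exact permutation test gave a two-sided p of 0.0286, the smallest that 4 against 4 arrays can give over 70 assignments. Any gene whose groups do not overlap gets this p, so it only restates the separation. By p-value it stood at rank 70 of the 21652 genes. The call ended when *dmbo* replicate 2, WT replicate 1, WT replicate 2 or WT replicate 3 was left out, at adjusted p-values of 0.108, 0.123, 0.111 and 0.111 from limma, with fold changes of -0.78, -0.82, -0.86 and -0.86. With both arrays of mixed sex transcripts left out, *dmbo* replicates 1 and 2, the fold change was -0.63 (limma adjusted p = 0.272). Among the arrays with *Xist* and low *Eif2s3y*, *Hjurp* had 8.11 and 8.61 in *dmbo* replicates 3 and 4 and 8.97 in WT replicate 2. The part of sex in the difference was not tested. The *dmbo* retina with the lowest lens crystallin signal, replicate 3 at 8.34, had *Hjurp* at 8.11, and the WT retina with the highest, replicate 4 at 9.0, had it at 8.96. The *dmbo* retina with the highest, replicate 4 at 12.52, had *Hjurp* at 8.61, the *dmbo* value nearest to WT. With the crystallin mean as a covariate, which correlates at 0.752 with genotype, the fold change of *Hjurp* was -1.04 (limma adjusted p = 0.0581). The part of lens transcripts in the difference was not tested.

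The 250 bases before the transcription start of *Hjurp* are shown because it is the gene that changed. They are from RefSeq (GRCm38.p6, minus strand, chr1:88277580-88277829), written 5′ to 3′, with capitals marking a CCAAT box, read here on the opposite strand as ATTGG, the site of the factor NF-Y.
Hjurp: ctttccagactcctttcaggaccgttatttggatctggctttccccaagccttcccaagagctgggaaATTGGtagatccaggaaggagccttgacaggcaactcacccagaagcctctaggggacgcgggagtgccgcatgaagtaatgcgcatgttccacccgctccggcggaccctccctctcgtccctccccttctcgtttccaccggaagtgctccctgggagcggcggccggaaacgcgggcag
The stretch holds no CAAGTG, the sequence that HMX1 is known to bind, on either strand. It does hold CAAG, a shorter core that the paper says HMX1 binds with lower affinity. The study's own search window also ran past the start, and those bases were not searched here.

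The probe sets around *Hjurp* gave no call. Within 1 Mb of 90155662, the low end of its probe set, 23 other probe sets have their listed start, of which 0 were called by limma and 0 had an unadjusted p under 0.05. Their fold changes ran from -0.21 to 0.14, and their lowest adjusted p was 0.722 from limma. *Heatr7b1*, which overlaps the end of *Hjurp* on the other strand, had a log2 fold change of 0.03, and *Trpm8*, a cold-gated ion channel next to it, had -0.09.

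The other centromere genes gave no call. *Cenpa*, the histone variant that HJURP carries, had a log2 fold change of -0.01 (SE 0.06, 95% interval -0.14 to 0.13, limma adjusted p = 0.999), with values of 8.16, 8.19, 8.16 and 8.31 in *dmbo* retinas, against 8.14, 8.14, 8.23 and 8.34 in WT retinas. The groups overlapped fully, and the interval left no room for a 1.2-fold change. *Cenpe*, the kinesin that moves chromosomes at the kinetochore, had 7.14, 7.16, 7.24 and 6.94 in *dmbo* retinas, against 6.94, 6.95, 7.03 and 6.92 in WT retinas. The values of *dmbo* replicates 1 to 3 lay above every WT value and that of *dmbo* replicate 4 lay among them, with a fold change of 0.16 (limma adjusted p = 0.591). *Cenpf*, a kinetochore and nuclear matrix protein, had a fold change of -0.03 (95% interval -0.21 to 0.16). *Cenpk*, a part of the inner kinetochore, had one of 0.17 (95% interval -0.03 to 0.37). Of the 5 genes, *Cenpe*, *Cenpf* and *Cenpk* lay near the background of the arrays, at or under 7.53, the 95th percentile of the mean log2 signals of olfactory receptor genes.

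**Figure D2:**
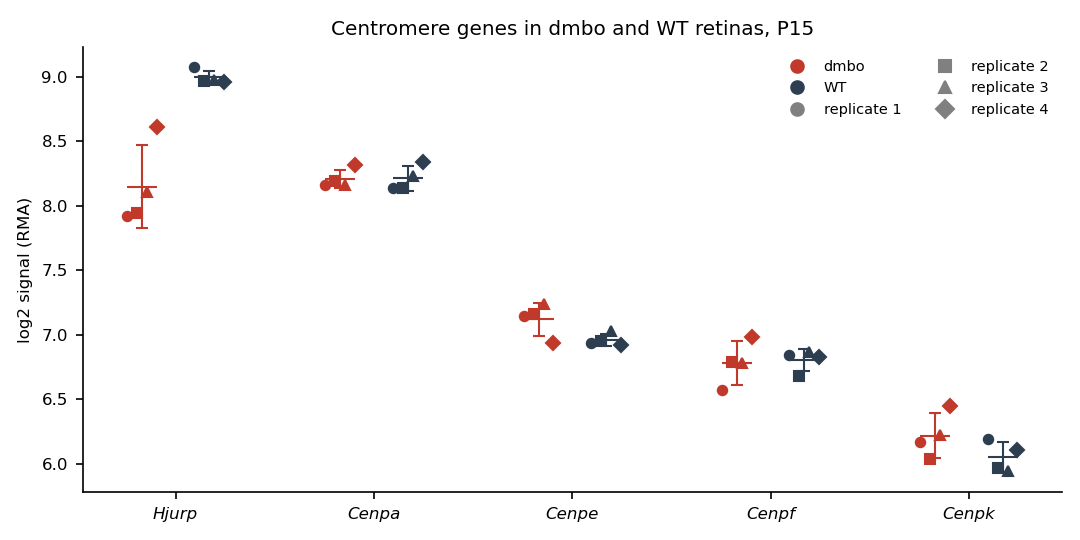
Log2 signal (RMA) of the 5 centromere genes in each retina, *dmbo* left of WT, with symbols for the replicate number and bars for mean and SD (n = 4 each). The 4 *dmbo* values of *Hjurp* (7.92 to 8.61) lie below its 4 WT values (8.96 to 9.07), whereas the groups of the other 4 genes overlap.

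Among the CDK inhibitors, all 4 genes had positive fold changes, between 0.11 and 0.28, and 0 passed the limma test, with 2 at an unadjusted p under 0.05. *Cdkn2c*, an INK4 inhibitor of CDK4 and CDK6 that lies on chromosome 4 between 109333481 and 109338280, had 7.89, 8.13, 7.99 and 8.21 in *dmbo* retinas, against 7.72, 7.75, 7.88 and 7.76 in WT retinas. The lowest *dmbo* value stood just above the highest WT value. The fold change was 0.28 (SE 0.07, 95% interval 0.12 to 0.44, limma adjusted p = 0.219). The exact permutation p of 0.0286 was fixed by the lack of overlap, so it adds no evidence to it. *Cdkn1b*, the CIP/KIP inhibitor that many retinal neurons and glia keep after they stop dividing, had 10.72, 10.76, 10.73 and 10.55 in *dmbo* retinas, against 10.50, 10.55, 10.62 and 10.47 in WT retinas. The values of *dmbo* replicates 1 to 3 were above all WT values, that of *dmbo* replicate 4 was not, and the fold change was 0.15 (limma adjusted p = 0.510). Its second probe set, just downstream, went the other way with -0.19 (limma adjusted p = 0.839), so the direction for this gene is not settled. *Cdkn1a*, a target of p53, had a fold change of 0.17 (95% interval -0.06 to 0.39), and *Cdkn1c*, an inhibitor of the CIP/KIP family, had 0.11 (95% interval -0.12 to 0.35). Müller glia are among the cells that keep *Cdkn1b* in the mature retina, and 2 of 6 Müller glia markers rose, *Aqp4* by 0.30 and *Kcnj10* by 0.29, where 0.314% of all genes rose. *Slc1a3*, with 0.26 (limma adjusted p = 0.0545), stayed just under 1.2-fold, *Vim* had 0.23 and *Glul* 0.08 without passing, and *Rlbp1* had -0.10 (limma adjusted p = 0.610), with all *dmbo* values below all WT values. The part of Müller glia in the inhibitors' values was not tested.

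Of the 3 cyclins of S phase, G2 and mitosis, 0 were called by limma and 1 had an unadjusted p under 0.05. *Ccna2*, the cyclin of S phase and G2 (chromosome 3, 36463787 to 36470920), had 9.25, 9.31, 9.32 and 9.37 in *dmbo* retinas, against 9.59, 9.54, 9.44 and 9.41 in WT retinas. The groups did not overlap, but the highest *dmbo* and the lowest WT value were close. The fold change was -0.18 (SE 0.05, 95% interval -0.30 to -0.07, limma adjusted p = 0.291), a size of 1.14-fold. Its exact permutation p of 0.0286 was likewise fixed by the lack of overlap. *Ccnb1*, a mitotic cyclin, had 7.01, 7.04, 6.84 and 7.33 in *dmbo* retinas, against 6.84, 6.94, 6.72 and 7.09 in WT retinas. Its brightest probe set lies on chromosome 7, its others on chromosomes 13 and 4, and the table marks all 3 as cross-hybridising, so which copy was read is uncertain. The 3 fold changes ran from 0.14 to 0.19. *Ccnb2*, the other mitotic cyclin of the set, had a fold change of 0.08 (95% interval -0.10 to 0.26).

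Of the 5 G1 cyclins, 0 passed the limma test, and 0 had an unadjusted p under 0.05. *Ccnd2* had the largest positive fold change of the 40 genes, 0.35, and also the widest 95% interval (-0.11 to 0.81, limma adjusted p = 0.809). Its values were 8.98, 8.66, 8.70 and 9.70 in *dmbo* retinas, against 8.52, 8.54, 8.71 and 8.86 in WT retinas. The *dmbo* retinas differed among themselves, with replicate 4 far above the rest, and the other 3 together stood 0.12 above the WT mean. With the crystallin covariate its fold change was -0.24. *Ccne1*, a partner of CDK2, had 8.33, 8.46, 8.32 and 8.43 in *dmbo* retinas, against 8.50, 8.49, 8.40 and 8.55 in WT retinas, with a fold change of -0.10 (limma adjusted p = 0.765). *Ccnd1*, the D cyclin of retinal progenitors, had a fold change of 0.13 (95% interval -0.17 to 0.43), *Ccnd3* 0.06 and *Ccne2* 0.0039.

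The 4 cyclin-dependent kinases had fold changes between 0.01 and 0.20, of which that of *Cdk2* turned negative with cyclic loess, and 0 passed the limma test, with 1 at an unadjusted p under 0.05. *Cdk6* had 9.12, 9.25, 9.37 and 9.38 in *dmbo* retinas, against 8.96, 9.12, 9.15 and 9.09 in WT retinas. Only *dmbo* replicate 1 lay within the WT range and the other 3 lay above it, with a fold change of 0.20 (SE 0.07, limma adjusted p = 0.447). *Cdk4*, a partner of D cyclins, had 10.75, 10.72, 10.75 and 10.82 in *dmbo* retinas, against 10.59, 10.61, 10.73 and 10.72 in WT retinas, with a fold change of 0.10 (limma adjusted p = 0.732). *Cdk1*, the kinase of mitosis, had 0.16 (95% interval -0.12 to 0.44) and *Cdk2*, that of S phase, 0.01 (95% interval -0.18 to 0.20).

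The replication genes gave narrow intervals around no change, with 0 called by limma and 0 at an unadjusted p under 0.05. All 7, the clamp *Pcna* and the 6 subunits of the MCM helicase, had 95% intervals within 1.2-fold, with bounds from -0.15 to 0.18. *Mcm4* had 8.15, 8.14, 8.24 and 8.07 in *dmbo* retinas, against 8.08, 8.13, 8.03 and 8.08 in WT retinas, and a fold change of 0.07 (limma adjusted p = 0.868). *Mcm7* had 8.24, 8.43, 8.27 and 8.34 in *dmbo* retinas, against 8.19, 8.26, 8.30 and 8.32 in WT retinas, and a fold change of 0.05 (limma adjusted p = 0.939). Both groups overlapped in each, and the fold changes of the other 5 ran from -0.02 to 0.05. The brightest probe set of *Pcna* is on chromosome 19 and its other on chromosome 2, both are marked as cross-hybridising, and both gave 0.02. Of the enzymes that supply nucleotides, *Rrm2*, a subunit of ribonucleotide reductase, had 7.33, 7.08, 7.13 and 7.58 in *dmbo* retinas, against 7.10, 7.12, 7.2 and 7.38 in WT retinas. *Tyms*, thymidylate synthase, had 8.01, 7.85, 8.18 and 8.05 in *dmbo* retinas, against 8.08, 8.07, 7.93 and 7.94 in WT retinas. Neither separated, at fold changes of 0.08 and 0.02.

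In the E2F and Rb pair, *Rb1*, the retinoblastoma protein, had 10.49, 10.48, 10.64 and 10.41 in *dmbo* retinas, against 10.73, 10.70, 10.71 and 10.61 in WT retinas. The groups overlapped, since *dmbo* replicate 3 exceeded WT replicate 4, and the fold change was -0.18 (SE 0.06, 95% interval -0.31 to -0.06, limma adjusted p = 0.343). *E2f1*, an activator of S phase genes, had 7.81, 7.72, 7.62 and 7.92 in *dmbo* retinas, against 7.64, 7.55, 7.73 and 7.68 in WT retinas, with a fold change of 0.12 (limma adjusted p = 0.810). Of the 6 mitotic kinase, checkpoint and passenger genes, 0 were called by limma, and 0 had an unadjusted p under 0.05. *Bub1b*, the checkpoint protein BubR1, had 8.78, 8.70, 8.74 and 8.43 in *dmbo* retinas, against 8.82, 8.85, 8.78 and 8.77 in WT retinas. Only *dmbo* replicate 1 reached the WT range, and the fold change was -0.14 (limma adjusted p = 0.757). *Bub1*, the checkpoint kinase at the kinetochore, had 6.12, 6.31, 6.13 and 6.68 in *dmbo* retinas, against 6.01, 6.11, 5.98 and 6.36 in WT retinas, with a fold change of 0.20 (limma adjusted p = 0.853). *Aurka*, *Aurkb* and *Plk1*, kinases of the spindle and of chromosome segregation, had fold changes of 0.06, 0.11 and 0.08, and *Birc5*, the passenger protein survivin, had -0.03.

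*Mki67* and *Top2a*, the usual markers of dividing cells, lay near background, with their highest values in *dmbo* replicate 4. *Mki67*, the antigen Ki-67, had 7.23, 7.05, 7.03 and 7.96 in *dmbo* retinas, against 7.03, 7.06, 6.90 and 7.37 in WT retinas. *Top2a*, the topoisomerase that untangles chromosomes, had 6.5, 6.26, 6.43 and 7.11 in *dmbo* retinas, against 6.25, 6.34, 6.52 and 6.46 in WT retinas. The groups overlapped in both genes, and *dmbo* replicate 4 was the highest array in both. The fold changes were 0.23 (95% interval -0.21 to 0.66) and 0.19 (95% interval -0.17 to 0.54), with adjusted p-values of 0.920 for both from limma.

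Promoters were searched for motifs of cell cycle genes and of HMX1. The RefSeq table (GRCm38.p6) held promoters for 32 of the 40 genes, and the 250 bases before each start were searched on both strands. Bases after the start, which the study's own window also covered, were not searched. CCAAT, or ATTGG in reverse, was found in 24 of 32 genes (75%), against 37.5% of 27025 genes. TTTGAA, or TTCAAA in reverse, known as the CHR element of genes expressed in late cell cycle, was found in 5 of 32 (15.6%; *Ccnb2*, *Cdk1*, *Mcm2*, *Mki67* and *Top2a*), against 18.3% of all genes. Of these, 150 bases before the start are shown for the 3 with the largest gap between *dmbo* replicate 4 and the other *dmbo* retinas, all on the minus strand, written 5′ to 3′ with CCAAT boxes and CHR letters in capitals on either strand: *Mki67* at chr7:135716380-135716529, *Top2a* at chr11:99024190-99024339 and *Cdk1* at chr10:69352913-69353062.
Mki67: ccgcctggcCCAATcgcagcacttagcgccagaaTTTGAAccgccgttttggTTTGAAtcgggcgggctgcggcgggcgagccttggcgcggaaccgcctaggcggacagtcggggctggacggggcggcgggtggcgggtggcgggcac
Top2a: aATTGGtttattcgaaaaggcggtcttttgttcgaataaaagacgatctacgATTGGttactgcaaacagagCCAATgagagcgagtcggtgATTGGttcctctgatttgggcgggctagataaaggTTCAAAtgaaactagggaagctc
Cdk1: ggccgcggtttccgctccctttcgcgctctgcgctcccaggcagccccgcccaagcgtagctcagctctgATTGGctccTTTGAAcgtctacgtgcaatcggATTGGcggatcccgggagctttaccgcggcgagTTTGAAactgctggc
These 3 were picked among the genes that hold the CHR letters, so their holding them was fixed in advance. Each also holds a CCAAT box, as do most of the matched genes. The *Hjurp* stretch above holds a single CCAAT box and no CHR letters. Any link between these letters and the gaps was not tested.

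The sequence that HMX1 is known to bind, CAAGTG, or CACTTG in reverse, was found in 3 of 32 genes (9.4%), against 13.2% of 27025 genes. The same letters are a form of the E-box CANNTG and overlap the site of NKX2-5. They are shown because these are the genes of the set that carry the motif of the mutated factor, in capitals, 5′ to 3′: *Bub1* on the minus strand at chr2:127831860-127831893, *Cenpe* on the plus strand at chr3:135212486-135212545 and *Mcm2* on the minus strand at chr6:88898974-88899030.
Bub1: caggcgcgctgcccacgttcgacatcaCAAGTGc
Cenpe: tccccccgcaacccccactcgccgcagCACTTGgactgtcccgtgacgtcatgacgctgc
Mcm2: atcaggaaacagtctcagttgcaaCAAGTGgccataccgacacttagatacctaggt
None of these 3 genes was called, and their log2 fold changes were 0.20 for *Bub1*, 0.16 for *Cenpe* and 0.03 for *Mcm2*.

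Some of the 40 genes had signals near the background of the arrays, in no larger a share than over all genes. The gauge of background was the 95th percentile of 1115 olfactory receptor genes, 7.53. At or under it lay 11 of the 40 genes, *Birc5*, *Bub1*, *Ccnb1*, *Cdk1*, *Cenpe*, *Cenpf*, *Cenpk*, *Mcm3*, *Mki67*, *Rrm2* and *Top2a*, and 31.7% of all genes. Most of them act in mitosis or in DNA synthesis, but so do many genes above the gauge. *Plk1*, *Aurka*, *Aurkb*, *Bub1b*, *Ccna2*, *Ccnb2*, *Tyms* and *Pcna* are among the latter. With vomeronasal receptors as the gauge (7.35) 9 genes were at or under it. The 29 genes above the olfactory receptor gauge included the D cyclins, *Cdk4*, *Cdk6*, *Rb1* and *Cdkn1b*, whose probe sets lay between 8.83 and 10.71. Probe sets differ in how brightly they hybridise, so the gauge describes the arrays and does not show that a transcript was absent.

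**Figure D3:**
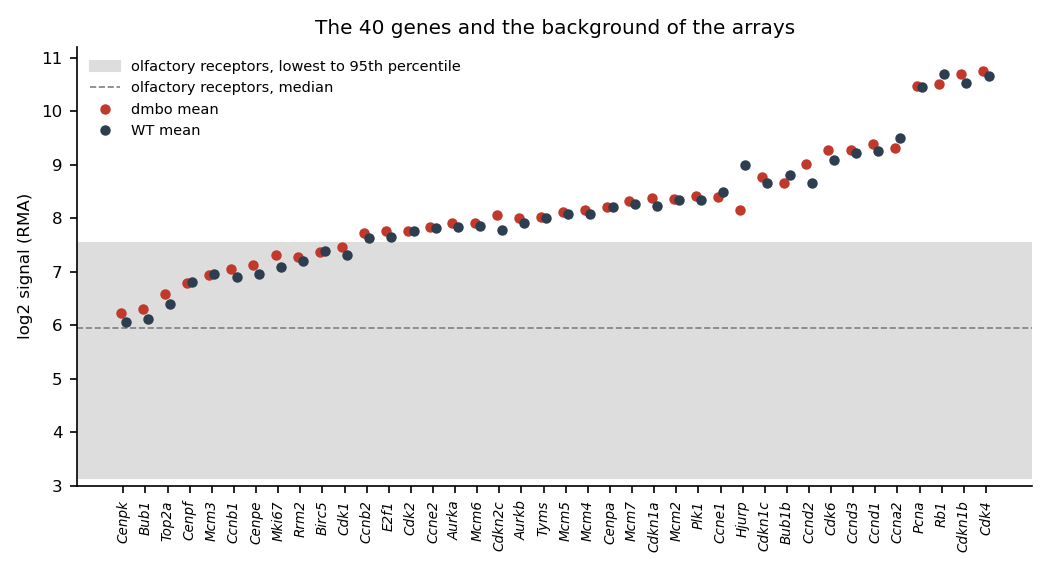
Mean log2 signal (RMA) of each of the 40 genes in *dmbo* and WT retinas (n = 4 each), ordered by the mean of all 8 arrays, over the range of 1115 olfactory receptor genes (grey, lowest to 95th percentile at 7.53; dashed line, their median at 5.94). The lowest 11 genes lie within the grey band, and *Hjurp* is the gene whose means lie farthest apart.

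The array of *dmbo* replicate 4 stood apart in many of these genes. The comparison was chosen after its values were seen. Of the 8 arrays, *dmbo* replicate 4 was the highest for 23 of the 40 genes (57.5%), against 28.2% of all genes. It was also the highest for 24 of 41 further genes of G2 and mitosis (58.5%), and for 51 of the 149 other cell cycle genes that hold them (34.2%). The other lists among the 149 did not share this excess to the same degree. It was the highest for 14 of 39 inner centromere and kinetochore genes (35.9%), 8 of 29 E2F, Rb and CDK regulators (27.6%) and 5 of 40 replication genes (12.5%). Among the 11 genes near background it was the highest for 10 (90.9%), against 42.4% of all genes near background, and among the 29 above for 13 (44.8%), against 21.5%. The *dmbo* SD was the larger one for 34 of the 40 genes (85%), against 62.6% of all genes. Set against the mean of the other 3 *dmbo* retinas, *dmbo* replicate 4 was over 0.3 higher for 14 genes (35%), against 6.06% of all genes and 6.71% of 149 other cell cycle genes. The largest such gaps were 0.92 for *Ccnd2*, 0.85 for *Mki67*, 0.71 for *Top2a* and 0.62 for *Hjurp*, and next came *Ccnd1* and *Bub1* at 0.49, *Cdk1* at 0.46 and *Cdkn1c* at 0.44. Of the 7 replication genes 0 had a gap over 0.3, though *dmbo* replicate 4 was the highest array for 3 of them, and 0 of the E2F and Rb pair had such a gap.

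Without *dmbo* replicate 4 the median fold change of the 40 genes was 0.03, 27 genes were positive and 13 negative, and *Mcm2*, *Rrm2*, *Ccnb2* and *Cdk2* turned negative. *Ccnd2*, *Mki67* and *Top2a* then had fold changes of 0.12, 0.01 and 0.01. With the crystallin covariate they had -0.24, -0.32 and -0.19. *Hjurp* fell by 1.00 without it (limma adjusted p = 0.000212), a larger fall than with it. The same array had the highest lens transcripts: the lens crystallins reached 12.52 on it, and 9 lens fibre and epithelium genes averaged 10.54 on it, against 7.76 to 8.99 on the other *dmbo* arrays and 7.79 to 7.94 on the WT arrays. Its olfactory receptor gauge was also the highest, 7.71, against 7.37 to 7.56 on the other *dmbo* arrays and 7.47 to 7.64 on the WT arrays. The part of lens transcripts and of the background level in the gaps was not tested. The other cell type lists spanned narrower ranges. The 9 markers of retinal progenitors averaged 8.98 on it, against 8.87 to 8.94 on the other *dmbo* arrays and 8.87 to 8.93 on the WT arrays. Pigment epithelium markers averaged 9.40 on it, against 8.63 to 9.08 on the other *dmbo* arrays and 8.74 to 9.34 on the WT arrays. These means were thus the highest on *dmbo* replicate 4, and those of endothelium and microglia were not. Endothelial and pericyte markers averaged 8.90 on it, against 8.80 to 8.87 on the other *dmbo* arrays and 8.87 to 9.01 on the WT arrays, and microglia markers 7.83, against 7.74 to 7.88 on the other *dmbo* arrays and 7.68 to 7.80 on the WT arrays. At or under the olfactory receptor gauge lay 1 of 14 crystallins, 1 of 9 pigment epithelium markers and 4 of 10 microglia markers, and 0 of the lens fibre, progenitor and endothelial markers.

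**Figure D4:**
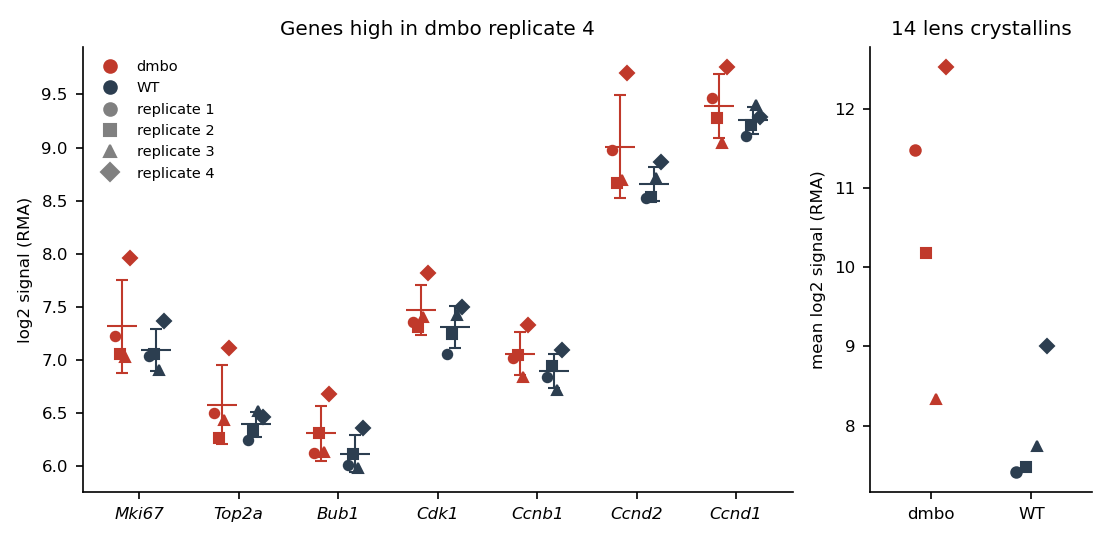
Left, log2 signal (RMA) of 7 genes in each retina, *dmbo* left of WT, with symbols for the replicate number and bars for mean and SD (n = 4 each); right, mean log2 signal of 14 lens crystallin genes on the same arrays. The 7 genes were picked for high values on *dmbo* replicate 4, so its diamond being the highest in each was fixed by the choice. Examples are 7.96 in *Mki67* and 9.70 in *Ccnd2*. Over the whole set that array was the highest for 23 of the 40 genes. It is also the highest in the lens crystallins, at 12.52.

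**Figure D5:**
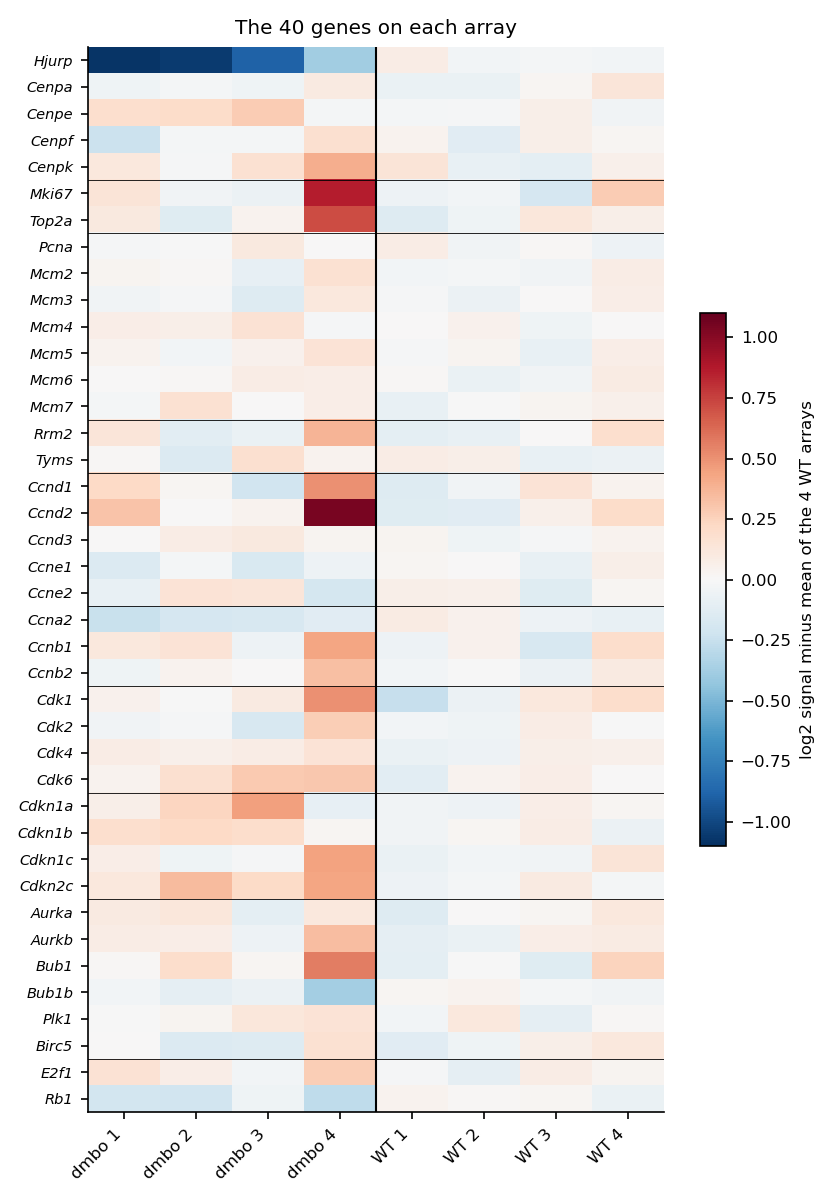
Log2 signal of the 40 genes on each array, *dmbo* arrays left of WT arrays, minus the mean of the 4 WT arrays for that gene (red higher, blue lower), with lines between roles. *Hjurp* is blue on all 4 *dmbo* arrays, and *dmbo* replicate 4 is red for many genes, most for *Ccnd2* and *Mki67*.

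Other genes of cell division, outside the 40, gave no call. A list of 149 covered the inner centromere and kinetochore, replication, G2 and mitosis, and the E2F, Rb and CDK regulators, and all 149 were on the array. By limma 0 were called, and 7 (4.70%) had an unadjusted p under 0.05, against 7.75% of all genes. Fold changes ran from -0.13 to 0.28 with a median of 0.03, and were positive for 108 and negative for 41. Values did not overlap between groups for 6 of them (4.03%), against 5.83% of all genes. Among these, *Prc1*, a spindle midzone protein, had 6.92, 6.87, 6.90 and 7.16 in *dmbo* retinas, against 6.57, 6.82, 6.68 and 6.65 in WT retinas (fold change 0.28, limma adjusted p = 0.243). *Cenpl*, an inner kinetochore protein, had a fold change of 0.14, *Mcm9*, a helicase of repair, 0.14, *Orc3*, of the origin recognition complex, 0.17, and *Lig1*, the ligase of Okazaki fragments, 0.08, each higher in *dmbo*, whereas *Ect2*, an exchange factor of cytokinesis, had -0.08. The lowest adjusted p of the E2F, Rb and CDK regulators was that of *Gadd45b*, a stress gene, at 0.330 from limma with a fold change of 0.28.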

How the data were processed

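Whole retinas of 4 *dmbo* and 4 WT mice at P15 were hybridised, 1 to an array, to the Affymetrix Mouse Gene 1.0 ST design. The authors made the deposited log2 values with RMA, which corrects background, normalizes arrays by quantiles and summarizes probe sets. Both deposited tables held the same values (largest difference 0). The annotated table's columns name a group alone, so replicate numbers came from the other table. Its fold change, t, p-value and FDR columns hold the authors' own comparison and were not used. Its positions name no build.

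The fit of *dmbo* minus WT covered all 28350 probe sets (limma 3.58.1, R 4.3.3) with Benjamini-Hochberg adjustment, and was tested on simulated data. A gene was called at a 1.2-fold change or more with an adjusted p under 0.1, and was represented by its brightest probe set. The 40 genes and all lists were chosen with earlier results of these data known. Of the list symbols 7 were matched through older names (GRCm38.p6). Values of every array are given for genes that were called or did not overlap and for the 2 of each role with the lowest p. Of the other cell cycle genes, the rule allowed those called, without overlap or among the 2 of each list with the lowest p, and not all of these are named. *Rpa3* and *Melk* are named outside it, as called under an alternative. Alternatives were other scalings, filters, variance models, call rules, inputs and probe set choices, the replicate number as a block, arrays left out, a lens crystallin covariate and other background gauges. Nothing says which mice shared a litter. The p-values set the difference between groups against the spread of these samples within groups. The number of arrays limits the precision.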

Additional observations from a re-analysis of the deposited data

Results flagged for a closer look

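In groups of 4 retinas, a sample was singled out where its gap to the nearest of the others was a larger part of the group's range than Dixon's 95% critical value. This happened in 4 of 80 groups of the 40 genes, and chance gives about 4. *Pcna* had a log2 signal of 10.56 in *dmbo* replicate 3, against 10.44 to 10.45 in the other *dmbo* retinas. *Aurka* had 7.74 in *dmbo* replicate 3, against 7.94 to 7.97 in the other *dmbo* retinas. *Hjurp* had 9.07 in WT replicate 1, against 8.96 to 8.98 in the other WT retinas. *Mcm2* had 8.42 in WT replicate 4, against 8.30 to 8.31 in the other WT retinas. The high values of *dmbo* replicate 4 were not among these, since its gaps to the next retina were smaller parts of the range.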

How the results depend on the processing

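With each array left out in turn, between 0 and 1 of the 40 genes and between 0 and 1 of the 149 other cell cycle genes were called. The call of *Hjurp* ended in 4 of these 8 settings (fold changes -1.0 to -0.77, adjusted p 0.000212 to 0.123 from limma), and *Spc25* was called without *dmbo* replicate 4. With *dmbo* replicates 1 and 2 both left out, 0 of the 40 were called. With array weights 1 of the 149 was called, *Gadd45b*. With the mean of lens crystallins as a covariate, which correlates at 0.752 with genotype, 3 of the 40 were called (*Hjurp*, *Cenpe* at 0.32 and *Cdkn1a* at 0.45) and 4 of the 149 (*Spc25*, *Orc3*, *Rpa3* and *Melk*). The cause of these differences was not tested. The 75th percentile of olfactory receptors put 3 of the 40 genes near background.

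Over 21 alternatives the fold change of *Hjurp* ran from -1.04 to -0.63. Many of these could not move it, since changes of filter, variance model or call rule leave the fold change as it is. As its groups do not overlap, leaving arrays out could not turn its sign. Residuals of same-numbered arrays correlated from -0.0291 to 0.425 with 1 of 4 pairs over 0.1, and those of other pairs from -0.451 to 0.318. The highest value, 0.425, was that of *dmbo* replicate 4 with WT replicate 4. With 4 arrays in each group, these values cannot settle whether the replicate numbers pair the samples. With the replicate block 1 of the 40 genes was called, *Hjurp* at an adjusted p of 0.0765 from limma, and 0 of the 149. The fold changes of *Hjurp*, *Ccna2* and *Cdkn2c* kept their sign in every setting that held them. The groups of these genes do not overlap, so left-out arrays could not turn their sign. Over all settings, though, 25 of the 40 genes changed sign at least once, 12 of them without the crystallin setting. Genes near background and 4 arrays in each group limit what can be told.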
